A study of Homo sapiens with 9 samples.

Results

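MSH5 and MND1 are genes of meiotic recombination, the exchange of DNA between paired chromosomes in germ cells, and their transcripts were measured here in macrophage-like cells treated with an anticancer drug. The 2 genes were taken by symbol from the probe annotation, out of 14884 genes named on the array. MSH5 had 2 of the table's 53617 rows and MND1 had 1. Both had been picked for a large fall against vehicle in earlier work on the same arrays, so their differences from vehicle are given below as a description, without a test.

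The cells were THP-1, a line grown from a human monocytic leukaemia, brought to an M0, macrophage-like state with the phorbol ester PMA. All 9 cultures shared this line and this PMA step. They then received vehicle, 0.5 µM cisplatin or 100 nM osimertinib for 16 h, with 3 cultures each that the labels call biological replicates. Cisplatin crosslinks DNA, and osimertinib is a covalent inhibitor of the epidermal growth factor receptor. RNA of each culture was read on its own Affymetrix Human Gene 2.0 ST array, and the values are gene-level log2 values as the authors deposited them. A single leukaemia line at 1 dose and 1 time limits what the groups can model, and in bulk RNA fewer cells with a transcript and less of it per cell cannot be told apart.

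In meiosis, programmed DNA breaks are cut back to single strands that invade the partner chromosome. MND1 pairs with HOP2, encoded by PSMC3IP, and this heterodimer helps the meiotic recombinase DMC1 in strand invasion. MSH5 pairs with MSH4 to form MutS gamma, a clamp that holds the joined DNA intermediates and steers them towards crossovers. MSH5 belongs to the MutS family of mismatch repair proteins but has no known part in mismatch repair itself. Both genes are best known from testis and ovary, and macrophages do not undergo meiosis.

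The 250 bases before the most upstream RefSeq transcript start of each gene are shown as a description. That the genes moved together is no reason to expect a shared motif, since both were chosen for their falls. Both stretches are on the plus strand of GRCh38.p14, at chr6:31739755-31740004 for MSH5 and chr4:153344399-153344648 for MND1. Capitals mark a match, on either strand, to TTCCCGC or TTGGCGC, forms of the motif bound by E2F factors, which act at many cell cycle genes.
MSH5: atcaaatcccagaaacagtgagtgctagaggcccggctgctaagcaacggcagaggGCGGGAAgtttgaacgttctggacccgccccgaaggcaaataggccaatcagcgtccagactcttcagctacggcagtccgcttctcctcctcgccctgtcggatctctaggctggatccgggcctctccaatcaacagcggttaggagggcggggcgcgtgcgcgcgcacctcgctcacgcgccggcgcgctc
MND1: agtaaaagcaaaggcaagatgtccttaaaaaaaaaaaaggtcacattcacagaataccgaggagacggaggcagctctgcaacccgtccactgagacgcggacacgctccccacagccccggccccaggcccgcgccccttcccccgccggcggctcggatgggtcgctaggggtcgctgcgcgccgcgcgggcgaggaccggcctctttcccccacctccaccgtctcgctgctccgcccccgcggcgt

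The MSH5 stretch held GCGGGAA, the reverse complement of TTCCCGC, from 194 to 188 bases before the start. It overlapped a GGGCGG, the GC box bound by SP factors, at 196 to 191 bases. A TTTGAA, the core of the cell cycle homology region, followed at 186 to 181 bases. CCAAT, the box bound by NF-Y, began 150 bases and 66 bases before the start, and there were further GC boxes at 170 to 165 and 46 to 41 bases. The MND1 stretch held 1 GC box, at 15 to 10 bases, and none of the other motifs. RefSeq lists another MND1 start 39 bases downstream, and the 250 bases before that one held GCGCCAA, the reverse complement of TTGGCGC, at 34 to 28 bases before it. CACGTG, an E-box that MAX with its partner MGA can bind, was in none of the 3 windows. On either strand, TTCCCGC was in 5.5%, TTGGCGC in 2.6%, TTTGAA in 13.3%, CCAAT in 32.0%, CACGTG in 6.3% and GGGCGG in 42.6% of the 35116 RefSeq promoter windows of the same length. These matches describe the letters only, and binding was not measured.

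MSH5 was lower with both drugs by about the same amount. On its brighter row the 3 vehicle arrays read 7.71, 7.72 and 7.68 on the log2 scale. The cisplatin arrays read 6.12, 6.05 and 6.06. The osimertinib arrays read 6.29, 6.11 and 6.15. All 6 drug arrays lay below all 3 vehicle arrays, by at least 1.39 log2 units, and the arrays of the drugs overlapped each other. Of all tested genes, 19.8% had every cisplatin array below every vehicle array, and 19.5% had this with osimertinib.

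On the brighter MSH5 row the vehicle mean was 7.70 ± 0.017, the cisplatin mean 6.07 ± 0.036 and the osimertinib mean 6.18 ± 0.097 (SD over 3 arrays in each case). The difference from vehicle was -1.63 (SE 0.077) for cisplatin, which left 32.4% of the vehicle level, and -1.52 (SE 0.077) for osimertinib, which left 34.9%. The dimmer MSH5 row moved in the same way. It read 6.45, 6.51 and 6.58 with vehicle, 4.96, 4.98 and 5.20 with cisplatin, and 5.27, 5.08 and 5.17 with osimertinib. Its differences from vehicle were -1.46 (SE 0.097) and -1.34 (SE 0.097), somewhat smaller than those of the brighter row, with all drug arrays again below the vehicle arrays. Whether the MSH5 rows share probes is not given in the sources used here, so they are not counted as independent measurements.

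The order of the MSH5 levels was vehicle, then osimertinib, then cisplatin, with the arrays of the last pair overlapping. Osimertinib minus cisplatin was 0.11 on the log2 scale (SE 0.077), given without a test because MSH5 was chosen from its falls with both drugs. A difference of this size does not show that the drugs act alike on MSH5.

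MND1 was lower with both drugs as well, and the osimertinib mean was the lower one. With vehicle the arrays read 7.09, 6.95 and 7.08. With cisplatin they read 5.66, 5.87 and 5.77. With osimertinib they read 5.75, 5.51 and 5.34, the widest spread of the 3 groups. The drug arrays lay at least 1.08 log2 units below the vehicle arrays, whereas the highest osimertinib array lay above the lowest cisplatin array.

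The vehicle mean of MND1 was 7.04 ± 0.079, the cisplatin mean 5.77 ± 0.10 and the osimertinib mean 5.53 ± 0.20 (SD over 3 arrays in each case). The difference from vehicle was -1.27 (SE 0.11) for cisplatin, which left 41.5% of the vehicle level, and -1.50 (SE 0.11) for osimertinib, which left 35.2%. Osimertinib minus cisplatin was -0.24 (SE 0.11), given without a test because MND1 was chosen from its fall with osimertinib. The order was therefore vehicle, cisplatin, osimertinib, with the drug groups overlapping. A pseudogene of MND1, MND1P1, is listed by RefSeq on chromosome 1, and the array cannot part transcripts that share probe sequence.

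**Figure D1:**
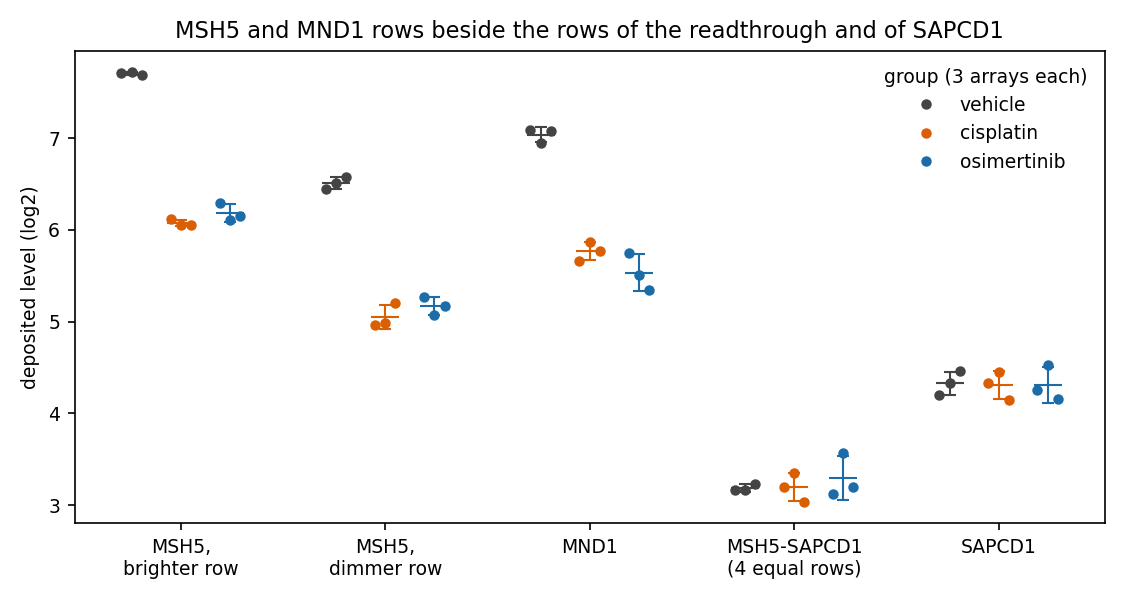
Deposited log2 level (vertical axis) of each MSH5 and MND1 row, of the 4 equal MSH5-SAPCD1 rows (drawn once) and of SAPCD1, by treatment group. The remaining readthrough row is not drawn. Points are arrays, the horizontal mark is the group mean and the bar its SD (n = 3). The MSH5 and MND1 rows drop from vehicle to both drugs, by 1.27 to 1.63 log2 units on the rows used in the gene fit. The drawn readthrough values and those of SAPCD1 stay within 3.04 to 4.53.

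Against the background of all genes tested, differences from vehicle were common in this series. At an adjusted p under 0.05, 31.0% of tested genes differed between cisplatin and vehicle, 16.5% higher and 14.5% lower, and 30.6% of the 7442 between osimertinib and vehicle, 16.9% higher and 13.7% lower. Between the drugs 1.75% differed, 0.766% higher and 0.981% lower with osimertinib. Nothing is read from these shares, or from those of separated arrays, about MSH5 and MND1, since they were chosen by these same contrasts. The comparisons with vehicle share the 3 vehicle arrays, so the falls with cisplatin and with osimertinib are not separate evidence. The mean level of MSH5 stood at percentile 74.0 and that of MND1 at percentile 60.7 of the tested genes, and both genes were above the level limit of 4.28 in every group, so neither passed the limit through vehicle alone.

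The gene next to MSH5 gave rows that did not follow it. A readthrough transcript, MSH5-SAPCD1, spans MSH5 and SAPCD1, and RefSeq lists it as a long non-coding RNA. It had 5 rows, of which 4 held equal values on all 9 arrays, so they are not separate measurements. Over the 5 rows and 9 arrays the values ran from 3.04 to 3.57, below the level limit. The differences from vehicle were between 0.0080 and 0.11 on the log2 scale, and in a limma fit over all 53617 rows the lowest adjusted p against vehicle was 0.72 (either direction, 9.88% of rows were called with cisplatin and 9.59% with osimertinib). SAPCD1 itself differed from vehicle by -0.021 (SE 0.13, adjusted p = 0.92) with cisplatin and by -0.017 (SE 0.13, adjusted p = 0.94) with osimertinib. Where in MSH5 the probes of each row lie is not given in the sources used here, and the readthrough rows are dim enough that a fall could go unseen.

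Tested neighbours on the chromosome were lower with a drug or did not pass the test, apart from HSPA1L, described below. Of the 5 protein-coding genes on either side of MSH5, 7 of 10 were named on the array and 5 were tested. CLIC1, a chloride channel protein immediately upstream, read 9.16, 9.28 and 9.10 with vehicle, 8.52, 8.70 and 8.70 with cisplatin, and 8.70, 8.62 and 8.45 with osimertinib. It fell by 0.54 (SE 0.075, adjusted p = 1.3e-04) and by 0.59 (SE 0.075, adjusted p = 5.8e-05), a smaller difference than that of MSH5 and also without overlap. Of all tested genes 14.5% were lower with cisplatin and 13.7% with osimertinib, and 19.8% and 19.5% had all drug arrays below vehicle. HSPA1L, a heat shock protein gene, had means of 4.06 with vehicle, 4.97 with cisplatin and 4.82 with osimertinib. Its vehicle mean lies under the level limit, so it was tested only through its drug levels, and its differences of 0.91 and 0.75 are given as a description. DDAH2 (0.13 and 0.18) and VARS1 (0.19 and 0.26) did not pass the test with either drug.

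Around MND1, 9 of the 10 neighbours were named and 5 were tested. Of these 5, 2 were lower with cisplatin and 3 with osimertinib, and 0 were higher. The shares lower over all tested genes were 14.5% and 13.7%. TRIM2, a ubiquitin ligase gene immediately upstream, read 6.95, 7.21 and 7.11 with vehicle, 6.12, 6.28 and 6.28 with cisplatin, and 6.35, 6.03 and 6.33 with osimertinib. It fell by 0.86 (SE 0.10, adjusted p = 4.1e-05) with cisplatin and by 0.85 (SE 0.10, adjusted p = 4.5e-05) with osimertinib. TMEM131L, immediately downstream, fell by 0.48 (SE 0.083, adjusted p = 6.2e-04) and by 0.39 (SE 0.083, adjusted p = 0.0027). TLR2, a receptor for bacterial lipoproteins, fell by 0.82 with osimertinib (SE 0.062, adjusted p = 7.6e-07). With cisplatin its difference was -0.16 (SE 0.062, adjusted p = 0.066), and osimertinib minus cisplatin was -0.66 (SE 0.062, adjusted p = 8.7e-05), a contrast in which 0.981% of tested genes were called lower. TMEM154 (0.17 and 0.13) and ARFIP1 (-0.033 and -0.017) did not pass the test.

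**Figure D2:**
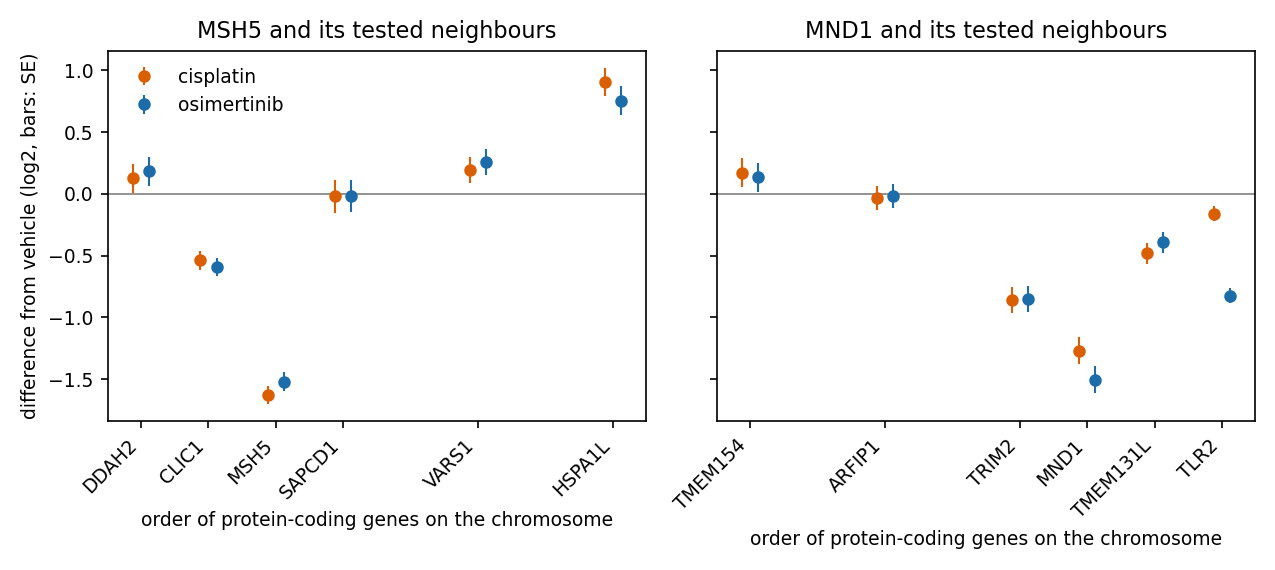
Difference from vehicle on the log2 scale (vertical axis) for MSH5, MND1 and their tested neighbours, in the order of protein-coding genes along the chromosome (horizontal axis). Points are fitted differences for cisplatin and osimertinib with the standard error as bar. MSH5 and MND1 lie lowest in their panels, at -1.63 to -1.27, with CLIC1, TRIM2 and TMEM131L between -0.86 and -0.39 beside them. On the other side of MSH5, SAPCD1 lies at -0.021 and -0.017, and HSPA1L farther along at 0.91 and 0.75.

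Of the binding partners of the 2 proteins, PSMC3IP was measured and did not pass the test. MSH4, the partner of MSH5, was not among the named rows and is not analysed here. PSMC3IP, which encodes the partner of MND1, read 4.77, 4.85 and 5.12 with vehicle, 4.21, 4.73 and 4.74 with cisplatin, and 4.80, 4.48 and 4.77 with osimertinib. The cisplatin arrays lay just below the vehicle arrays and the osimertinib arrays overlapped them. The difference was -0.35 (SE 0.16, adjusted p = 0.11) with cisplatin and -0.23 (SE 0.16, adjusted p = 0.28) with osimertinib, neither of which passed. Without the lowest array, cisplatin replicate 1, the cisplatin difference was -0.18 (adjusted p = 0.37). The recombinase gene DMC1, which the MND1 heterodimer serves, was not among the named rows either.

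Other genes of meiotic recombination were sorted into lists for the crossover complex, strand exchange, break formation, and the chromosome axis with the synaptonemal complex. Of their 64 genes, 47 were named on the array and 15 were at or above the level limit. The other 32 had mean levels from 1.55 to 4.10, among them the break-forming nuclease SPO11, the axis protein HORMAD1 and the synaptonemal proteins SYCP1 and SYCP3. In a fit without the level limit, which called 14.7% of genes with cisplatin and 14.8% with osimertinib, 1 of these 32 was called: SHOC1, a crossover factor of the same pathway as MSH5. SHOC1 read 3.03, 2.86 and 3.19 with vehicle, 2.04, 2.13 and 2.70 with cisplatin, and 2.32, 2.12 and 1.99 with osimertinib, at adjusted p = 0.012 and 0.0042. All of its values are below the limit, and no background level was used here to tell signal from background.

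Of the 15 tested genes, 5 were lower and 0 higher with cisplatin, or 33.3% lower against 14.5% of all tested genes. With osimertinib 4 were lower and 0 higher, or 26.7% against 13.7%. These counts include TOP6BL, described below, which was above the level limit with vehicle only. Without it, 4 of 14 were lower with cisplatin and 3 of 14 with osimertinib. Leaving out cisplatin replicate 1 left 3 of 15 lower with cisplatin, and quantile normalization called 1 of the 15 higher with each drug. The median difference of the 15 was -0.081 with cisplatin and -0.15 with osimertinib, against 0.032 and 0.037 over all tested genes. Between the drugs 0 of the 15 passed. Most of the 15, among them PALB2, SMC3 and the called genes RAD54L, RAD54B, EXO1 and MRE11, are not confined to meiosis. The counts are therefore not read as a change of a meiotic programme. The differences of these 15 ran from -0.86 to 0.20 with cisplatin and from -0.84 to 0.18 with osimertinib, against -1.63 to -1.27 for MSH5 and MND1.

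In the strand exchange list, 2 of 5 tested genes fell with each drug and 0 rose. Among all tested genes 14.5% fell with cisplatin and 13.7% with osimertinib. RAD54L, a DNA translocase of strand exchange, read 5.63, 5.45 and 5.68 with vehicle, 4.76, 4.56 and 4.86 with cisplatin, and 4.66, 4.81 and 4.77 with osimertinib. It fell by 0.86 (SE 0.11, adjusted p = 7.6e-05) and by 0.84 (SE 0.11, adjusted p = 8.8e-05), with no overlap between drug and vehicle arrays. Its relative RAD54B fell by 0.70 (SE 0.14, adjusted p = 0.0018) with cisplatin and by 0.65 (SE 0.14, adjusted p = 0.0028) with osimertinib. PALB2, a scaffold of homologous recombination, and FIGNL1, an ATPase of the same process, did not pass, with differences of -0.16 to -0.038.

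Over all tested genes 14.5% were lower with cisplatin and 13.7% with osimertinib. In the crossover list, 1 of 4 tested genes fell with each drug. This was EXO1, a nuclease with roles in DNA end resection and in crossover formation, which read 5.91, 5.93 and 5.83 with vehicle, 5.33, 5.35 and 5.54 with cisplatin, and 5.54, 5.54 and 5.22 with osimertinib. It fell by 0.48 (SE 0.11, adjusted p = 0.0046) and by 0.46 (SE 0.11, adjusted p = 0.0063). EXO1 held the same deposited value, 5.54034, on cisplatin replicate 3 and on osimertinib replicates 1 and 2. Equal values on several arrays occurred for other genes too, such as TRIP13 on all vehicle arrays (5.54034). Their cause was not tested, and an SD or SE over such values may not measure the spread between cultures. The crossover endonuclease genes MLH3 (0.0093 and -0.033) and MUS81 (0.029 and -0.057) and the kinase gene CDK2 (-0.052 and -0.15) did not pass.

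In the break formation list, 2 of 5 tested genes were called lower with cisplatin, against 14.5% of all tested genes. With osimertinib 1 was called lower, against 13.7%. The cisplatin count was 0 without cisplatin replicate 1, and the osimertinib count was 0 without osimertinib replicate 3. TOP6BL, the partner of SPO11 in making meiotic breaks, read 4.70, 4.72 and 4.79 with vehicle, 3.83, 4.29 and 4.28 with cisplatin, and 4.11, 4.46 and 3.83 with osimertinib. Its difference was -0.61 with each drug (SE 0.16). Its drug means lie under the level limit, so it entered the fit only through its vehicle level, and its calls are not read as a result. MRE11, a nuclease that starts end resection, fell by 0.43 with cisplatin (SE 0.14, adjusted p = 0.033), a call that ended without cisplatin replicate 1 or 3 or vehicle replicate 2 or 3 (adjusted p up to 0.12) and with arrays centred on their medians (adjusted p = 0.060). Its difference with osimertinib was -0.22 (SE 0.14, adjusted p = 0.26). RAD50 and NBN, which encode the other members of the MRE11 complex, did not pass (-0.17 and 0.20 with cisplatin). In the axis and synapsis list only SMC3, a cohesin subunit of every dividing cell, was tested, and it did not pass (0.012 and 0.12).

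**Figure D3:**
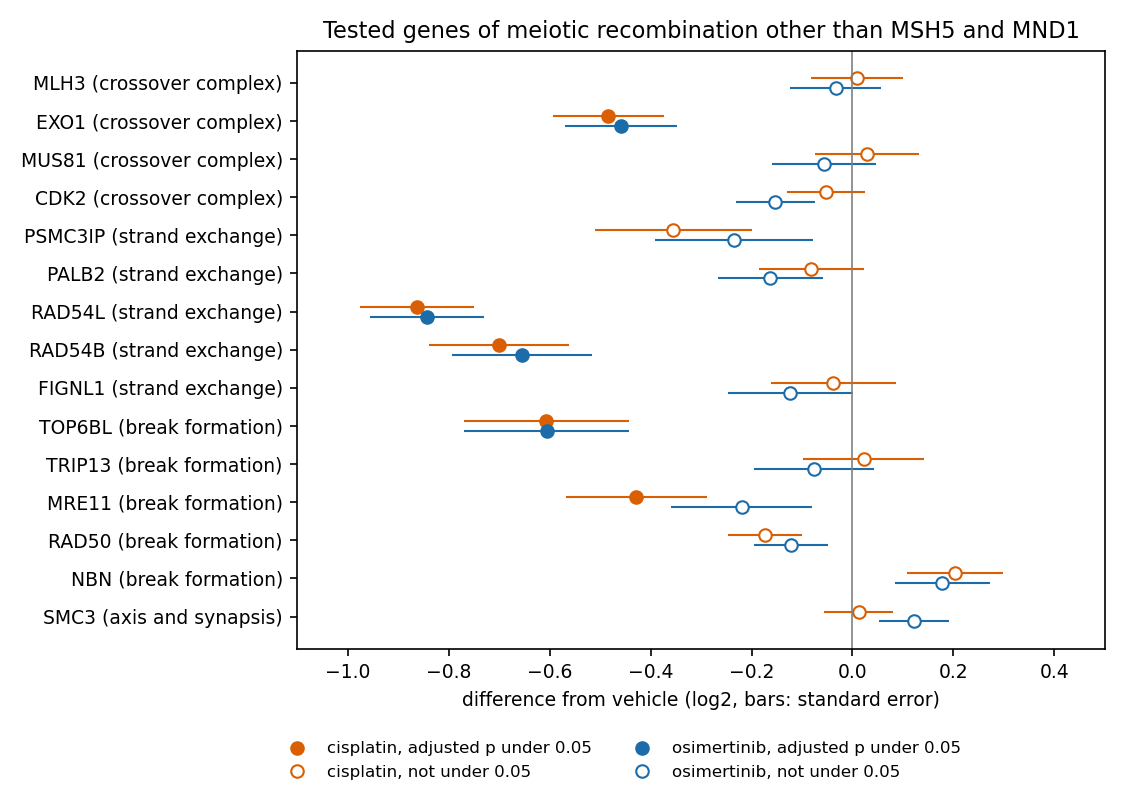
Difference from vehicle on the log2 scale (horizontal axis) for the 15 tested genes of the meiotic lists, with MSH5 and MND1 left out. Points are fitted differences with the standard error as bar, filled where the adjusted p was under 0.05. RAD54L, RAD54B, EXO1 and TOP6BL are filled for both drugs and MRE11 for cisplatin alone, between -0.86 and -0.43, though TOP6BL was above the level limit with vehicle only.

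The mismatch repair relatives of MSH5 did not pass the test. MSH3 differed from vehicle by -0.23 (adjusted p = 0.11) with cisplatin and by -0.21 (adjusted p = 0.15) with osimertinib, and MSH6 by -0.20 (adjusted p = 0.16) and -0.059 (adjusted p = 0.71). These are MutS proteins that recognize mismatches. Of the 16 genes of the mismatch repair list 7 were named and 6 tested, and EXO1, given above, was the only one that fell with either drug. Of all tested genes 14.5% were lower with cisplatin and 13.7% with osimertinib.

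Meiotic genes are kept silent in body cells by the PRC1.6 complex around E2F6, MGA and MAX, by histone methylation through EHMT1 and EHMT2, and by DNA methylation. Of 21 listed genes of these repressors 18 were named and 17 tested, and E2F6, RNF2 and YAF2 were not among the named rows. Of the 17, 4 rose and 4 fell with cisplatin, and 2 rose and 1 fell with osimertinib. Over all tested genes 16.5% were higher and 14.5% lower with cisplatin, and 16.9% and 13.7% with osimertinib. After quantile normalization 5 of the 17 were higher and 2 lower with osimertinib, and without cisplatin replicate 2 the cisplatin count was 1 higher and 3 lower. DNMT1, which copies DNA methylation after replication, read 7.96, 8.06 and 7.95 with vehicle, 7.17, 7.37 and 7.45 with cisplatin, and 7.49, 7.49 and 7.37 with osimertinib. It fell by 0.66 (SE 0.079, adjusted p = 3.5e-05) and by 0.55 (SE 0.079, adjusted p = 1.6e-04). EHMT2 rose by 0.36 (SE 0.072, adjusted p = 0.0021) and 0.32 (SE 0.072, adjusted p = 0.0044), and RING1, a ubiquitin ligase of the Polycomb complexes, by 0.36 (SE 0.094, adjusted p = 0.011) and 0.43 (SE 0.094, adjusted p = 0.0032). Leaving out cisplatin replicate 2 ended the RING1 call with cisplatin (adjusted p = 0.051).

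Past the threshold with cisplatin and not with osimertinib, MGA fell by 0.40 (adjusted p = 0.0075), EHMT1 by 0.32 (adjusted p = 0.011) and WDR5, a histone-binding adaptor, by 0.34 (adjusted p = 0.026). L3MBTL2, a PRC1.6 subunit, rose by 0.28 (adjusted p = 0.048) and UHRF1, which guides DNMT1 to replicated DNA, by 0.29 (adjusted p = 0.043). Between the drugs 0 of the 17 were called, so these 5 genes are not shown to differ between them, and MGA with osimertinib (-0.28) was at an adjusted p of 0.050. The MGA call with cisplatin stood on leaving out each array in turn (adjusted p up to 0.037). The EHMT1 call ended without vehicle replicate 3 (adjusted p = 0.058), and that of WDR5 without cisplatin replicate 2 or 3 or vehicle replicate 2 (up to 0.12) and after quantile normalization (0.095). The L3MBTL2 call ended without any array other than osimertinib replicate 1 and vehicle replicate 3 (adjusted p up to 0.15). That of UHRF1 ended without any array other than cisplatin replicate 1, osimertinib replicate 1 and vehicle replicate 3 (adjusted p up to 0.17). Both also ended without the level limit (adjusted p = 0.079 for each) and with only the 2 groups fitted (0.069 and 0.063).

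**Figure D4:**
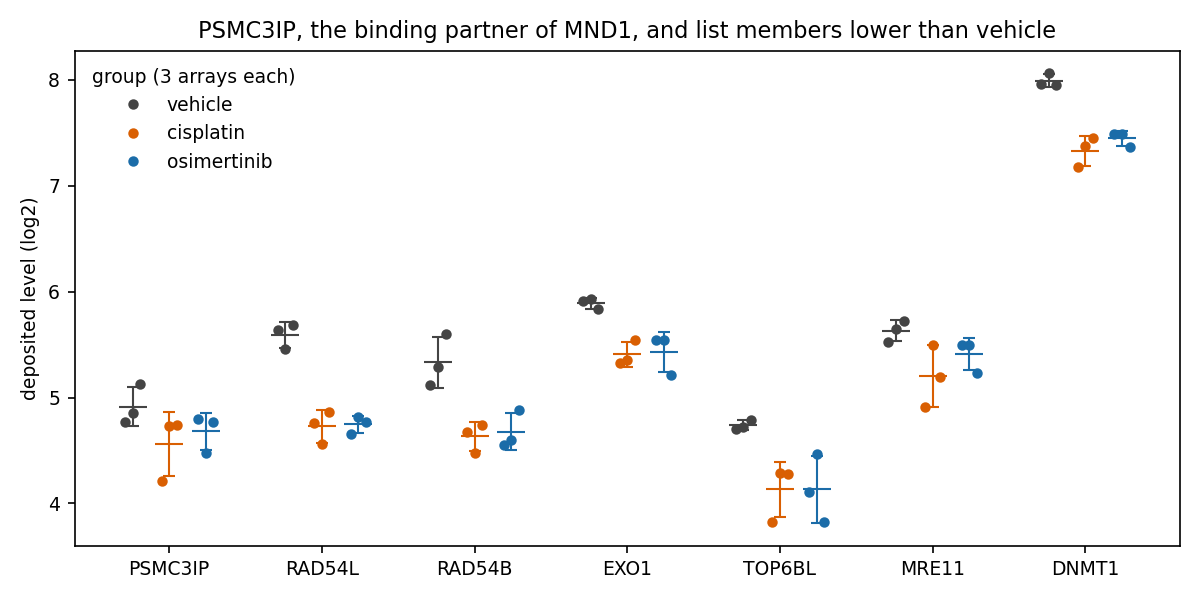
Deposited log2 level (vertical axis) of PSMC3IP, of the meiotic list members lower with a drug, and of DNMT1, by treatment group. Points are arrays, the horizontal mark is the mean and the bar the SD (n = 3). RAD54L shows a wide gap between vehicle (5.45 to 5.68) and drug arrays (4.56 to 4.86), whereas PSMC3IP with osimertinib overlaps vehicle.

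Markers of other cell types and of cell division were measured beside these genes. Of 20 germ cell genes 17 were named and 16 lay below the level limit, including DDX4 (mean 1.87) and DAZL (mean 3.35). The mean over the 17 was 2.64 to 2.65 on the vehicle arrays, 2.66 to 2.82 with cisplatin and 2.60 to 2.71 with osimertinib. Only PRM2, a sperm protamine gene, was tested, and it was higher with cisplatin by 0.37 (adjusted p = 0.033), a call that ended without cisplatin replicate 1 or 2 or vehicle replicate 2 or 3 (adjusted p up to 0.14). Of 12 macrophage genes 7 were named: CD68, CSF1R, TYROBP, SPI1 and CD14 were above the level limit, and LYZ (mean 3.25) and CD163 (mean 2.43) were below it. Their mean was 6.05 to 6.13 on the vehicle arrays, 6.18 to 6.37 with cisplatin and 6.11 to 6.27 with osimertinib. Of the 5 tested macrophage genes 2 were higher and 0 lower with each drug. CD68 rose by 0.51 (adjusted p = 2.0e-05) and 0.30 (adjusted p = 0.0012), and CSF1R by 0.50 (adjusted p = 1.0e-04) and 0.29 (adjusted p = 0.0055). TYROBP, SPI1 and CD14 were not called with either drug. Over all tested genes, 16.5% were higher with cisplatin and 16.9% with osimertinib.

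Of the T cell genes 3 of 6 were named, with 1 tested and 0 called. Of the B cell genes 1 of 5 was named, PAX5, and it was not called. Of the epithelial genes 4 of 5 were named and 2 tested, and 1, the keratin gene KRT18, fell with each drug. Among all tested genes 14.5% were lower with cisplatin and 13.7% with osimertinib. Of the fibroblast genes 1 of 5 was named and lay below the limit, and 0 of 4 erythroid genes were named.

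Some proliferation genes fell with both drugs. Of 30 listed genes 28 were named and tested: 12 fell, 1 rose and 15 did not pass with each drug. Over all tested genes 14.5% were lower and 16.5% higher with cisplatin, and 13.7% and 16.9% with osimertinib. After median centring 7 of the 28 were lower and 1 higher with osimertinib. The mean level over the 28 was 6.50 to 6.53 on the vehicle arrays, 6.21 to 6.35 with cisplatin and 6.21 to 6.36 with osimertinib, without overlap. The median difference was -0.21 with cisplatin and -0.19 with osimertinib, and the farthest fall, that of the mitotic checkpoint kinase gene BUB1, was 0.87 and 1.11. PLK1, another mitotic kinase gene, fell by 0.51 and 0.74, and MCM4, part of the replicative helicase, by 0.54 and 0.55. AURKA was the member that rose, by 0.35 and 0.45. The part of cell division in the falls of MSH5 and MND1 was not tested.

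The genes with the pattern most like MSH5 over the 9 arrays were HNRNPC (Pearson r = 0.996), which encodes a protein that binds nuclear pre-mRNA, LONRF2 (r = 0.991), the zinc finger gene ZNF107 (r = 0.990), DYNLT5 (r = 0.989) and TTC39C (r = 0.987). HNRNPC differed from vehicle by -0.97 and -0.90, and DYNLT5 by -1.40 and -1.20. Those most like MND1 were NLK, a kinase gene (r = 0.996), RGPD6 (r = 0.993), NREP (r = 0.992), CABYR (r = 0.991), which encodes a calcium-binding sperm tail protein, and RSRP1 (r = 0.990). CABYR differed from vehicle by -0.97 and -1.13. MSH5 and MND1 correlated with each other at 0.968, and each correlated with PSMC3IP at 0.59. These values describe 9 arrays that share the step from vehicle to drug: 436 of 7441 other tested genes had an r above 0.9 with MSH5 and 423 with MND1. RGPD6 belongs to a family of near-identical copies that the array may not part.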

How the data were processed

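Arrays of 9 cultures (3 vehicle, 3 cisplatin, 3 osimertinib) were compared, grouped by the sample titles. The scans were turned into gene-level values by the authors' service provider, per the series' design text. The submitters' processing notes list Affymetrix Power Tools, with no version. The range of the values (0.65 to 13.17) was taken to mean that they were deposited as log2; the normalization, the summarization and the log base itself were not given in the sources used here. Array medians lay between 3.29 and 3.37, and a shift common to most transcripts would not be seen.

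The platform annotation named 16098 of 53617 rows, all matched to RefSeq by Entrez identifier. Each gene was given its row with the highest mean, and the 7442 genes at or above the median gene mean (4.28) entered limma 3.58.1 (R 4.3.3): 3 group means, trend and robust empirical Bayes, two-sided p adjusted by Benjamini-Hochberg over all tested genes, called under 0.05. Precision is limited by having 3 arrays a group. MSH5, MND1 and all lists were chosen with earlier results of these data known. Named are the members, PSMC3IP and MSH4, called list members or up to 4 others, 5 neighbours on either side and the 5 most alike genes; BUB1, PLK1, MCM4, AURKA, KRT18, the macrophage genes and low germ cell and meiotic genes were named after their values were seen. Promoters are RefSeq's. Alternatives changed the level limit, normalization, variance model, row choice, groups fitted, replicate block and arrays. Replicate numbers were not used to pair the samples in the main fit.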

Additional observations from a re-analysis of the deposited data

How the results depend on the processing

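No difference of MSH5 or MND1 changed direction under any alternative tried, and 529 of 573 alternative values of the main comparisons were labelled unchanged. For the differences of MSH5 and MND1 from vehicle, and of MND1 between the drugs, this meant staying within the spread between arrays. For the 19 values of MSH5 between the drugs it meant staying on the same side of the adjusted p threshold. Those 19 labels are not read as a test, since MSH5 was chosen from its falls with both drugs. Most of the 573 values are counts of called genes. A count was labelled unchanged if it equalled the main count or had a similar ratio to it, so the total overstates how much was tested. MSH5 ran from -1.65 to -1.46 against vehicle with cisplatin and from -1.57 to -1.34 with osimertinib, and MND1 from -1.32 to -1.19 and from -1.61 to -1.41. MSH5 with cisplatin was -1.55 as the mean of both rows, -1.59 after median centring, -1.57 after quantile normalization and -1.46 on the dimmer row. With osimertinib it was -1.43 as the mean of both rows and -1.34 on the dimmer row, an alternative added after the data were seen. Leaving out 1 array gave -1.65 to -1.62 and -1.57 to -1.48 for MSH5. Osimertinib minus cisplatin for MSH5 stayed between 0.054 and 0.15, and for MND1 between -0.34 and -0.14.

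Counts moved further. Fitting all rows together, also added later, called 5295 rows with cisplatin, 5144 with osimertinib and 35 between the drugs. The 130 genes called between the drugs became 85 with median centring, 76 without the level limit, 77 with only the 2 groups fitted, 217 with quantile normalization, 63 without trend and robust fitting, and 54 to 147 on leaving out 1 array. It was 54 to 76 without cisplatin replicate 2 or 3 or any 1 osimertinib array. The split of calls was 1227 higher and 1081 lower with cisplatin and 1255 and 1022 with osimertinib. Quantile normalization gave 1968 and 974, and 2004 and 932, with the median over genes at 0.11 for both drugs. Median centring gave 1536 and 734 with osimertinib, and all rows 1870 and 3425, and 1857 and 3287.

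The crossover list had 2 calls with each drug without the level limit. Break formation with cisplatin had 1 call after median centring, without the limit and with a stricter one, and 0 to 2 on leaving out 1 array. With osimertinib it had 2 after quantile normalization, 0 with the stricter limit and 0 to 1 on leaving out 1 array. Mismatch repair with osimertinib had 2 after quantile normalization and 1 to 2 on leaving out 1 array. The germ cell list had 0 calls with cisplatin without the limit and 0 to 1 on leaving out 1 array, and 1 with osimertinib after quantile normalization. The repressor list had 4 to 8 calls with cisplatin on leaving out 1 array and 7 with osimertinib after quantile normalization. Proliferation with osimertinib had 8 after median centring. The causes of these shifts were not tested.

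Samples of the same replicate number did not deviate together (correlations from -0.23 to 0.13), so no pairing was used. With 3 arrays a group these correlations cannot exclude a shared culture day or batch. With the replicate number as a block, 2155 genes were called with cisplatin, 2145 with osimertinib and 108 between the drugs. The block ended the L3MBTL2 and UHRF1 calls with cisplatin (adjusted p = 0.061 for each). The limit of 4.28, under which most meiotic genes lie, is the median of the gene means and not a measured background. How far levels under it stand above background was not tested, and 3 arrays a group leave small differences unresolved.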
